A study of Mus musculus with 5 samples.

Results

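The genes described here are the nuclear genes of the mitochondrial respiratory chain and the ATP synthase, in mouse embryonic stem (ES) cells with an inducible Akt kinase and in their derivatives. Members were all probes whose gene symbol in the array annotation begins with Nduf (complex I), Sdha to Sdhd (complex II), Uqcr (complex III), Cox and a digit (complex IV) or Atp5 (ATP synthase). These symbols belonged to 84 of 22871 probes and to 83 of the 16032 genes named on the array. Ndufs5 alone had 2 probes, of which the one with the higher mean was kept. Names starting with mt-, for subunits encoded in mitochondrial DNA, are outside that rule. One member, Cox4nb, is today called Emc8, a subunit of an endoplasmic reticulum membrane complex, and is no part of the chain; it is counted among the 83 and named apart.

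Expression was measured on 5 one-colour arrays. Of these, 2 came from Akt-spheres, floating germ cell-like colonies grown with 1 µM 4-hydroxytamoxifen (4OHT) on OP9 stromal cells, once from line 21 and once from line 42. There was 1 array each for ES-like cells reverted from the line 21 spheres on embryonic fibroblasts after transient 4OHT, for line 21 ES cells with 1 µM 4OHT and for line 21 ES cells without it. All 5 cultures derive from male strain 129 ES cells that express a myristoylated Akt fused to a modified estrogen receptor, a kinase active only with 4OHT, and both ES cultures were feeder-free. The spheres followed a blood differentiation protocol, and OP9 cells were removed by letting them attach to a dish. The sphere arrays differ in line, so that line and replicate cannot be told apart, line 42 ES cells are not analysed here, and nothing says that the arrays came from repeated cultures. The reverted cells and both ES cultures are called ES-type below.

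The respiratory chain moves electrons from NADH (complex I) and succinate (complex II) through ubiquinone to complex III, and from there through cytochrome c to oxygen at complex IV. The proton gradient that complexes I, III and IV build drives the ATP synthase, whose F1 part makes ATP and whose Fo part is the proton turbine. Core subunits carry the electron path, accessory or supernumerary subunits surround them, and assembly factors insert copper, haem and iron-sulfur centres. Naive ES cells respire actively, while cells of the primed epiblast rely more on glycolysis.

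The deposited intensities had a median of 50 on each array, and 6.09% to 9.11% of probes per array held no value. Of 10 ES cell markers, 7 passed limma as lower in spheres than on the ES-type arrays (1.47% of all genes were called lower). The summed intensity of all 10 was 11264 to 15536 in spheres and 89279 to 102643 on ES-type arrays. Nanog, Zfp42 and Esrrb did not pass. Nanog was not lower, with 5523 and 4003 in spheres against 4538, 3839 and 5480 on the ES-type arrays (log2 0.04). None of 10 germ cell markers passed (0 at an adjusted p of 0.05), with sums of 6184 to 14697 in spheres and 4908 to 8319.8 on ES-type arrays. The higher sphere sum held Dppa3 at 9198 in line 42, where line 21 spheres read 223. OP9 stroma and fibroblast markers summed to 383 and 779.7 in spheres and to 1078 to 1233 on ES-type arrays. Much of the ES-type sum came from Acta2 (80.7 and 62.4 in spheres against 606, 415 and 476) and Thy1 (24.8 and 16.1 against 230.1, 331 and 464), the 2 of 9 tested markers called lower, while 0 were called higher. Mgp read 328 in line 21 spheres and 10.1 in line 42 spheres, against 4.43, 5.21 and 4.84 on the ES-type arrays. The list's median log2 difference was -0.24 for spheres against the ES-type arrays, 0.30 against ES cells without 4OHT and 0.34 against ES cells with it. Adipocyte markers summed to 660.2 and 824 in spheres and to 407 to 854 on ES-type arrays. Fabp4 read 183 and 143 in spheres against 6.07, 4.63 and 4.99, and Cidea 12.6 and 15.2 against 77.7, 236 and 80.4. Thy1, Fabp4, Cidea and, among the 7 ES cell markers, Tbx3 and Fgf4 each passed the filter on dim probes (an intensity of 28.6 to 29.3) only through the side where they were high. The 9 measured muscle markers summed to 267 and 278 in spheres and to 280.4 to 336 on ES-type arrays. In such bulk RNA, fewer cells of a type and less RNA per cell cannot be told apart. The part of other cells in the results below was not tested.

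Set against the 3 ES-type arrays as one group, most respiratory chain genes lay close to their ES-type level in both sphere lines: of the 79 members that passed the filter on dim probes, 67 (84.8%) differed by less than 1.5-fold, against 68.7% of all 10589 genes tested. Among the 1612 tested genes with a mean intensity of at least 1000, which include 65 of the members, the share was 77.6%. The middle 50% of all 79 members spanned 0.42 log2 units, against 0.57 for those bright genes and 0.71 for all genes. Share and spread were not computed for the 65 bright members alone. One member, the complex I subunit gene Ndufb2, passed limma (1 lower and 0 higher, or 1.27% of members), while 2.44% of all genes were called, 1.47% lower and 0.963% higher. At an unadjusted p under 0.05 there were 8 members (10.1%), against 18.9% of all genes.

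The median log2 difference, spheres minus ES-type, was -0.11 over the members and 0.00 over all genes, and it turned to 0.04 under quantile normalization, with 0.03 for all genes. Both sphere arrays lay below all 3 ES-type arrays for 17 members (21.5%, against 18.5% of all genes) and above them for 6 (7.59%, against 19.1%). Under quantile normalization 9 of the 79 were below (against 17.2% of all genes) and 9 above (against 20.4%). The order of the arrays was the same with median centring, no centring and quantile normalization for 8 of the lower members (Ndufb2, Cox7c, Cox6c, Cox7b, Cox11, Sdhc, Uqcrc1 and Cox4nb) and for 5 of the higher ones (Ndufc2, Cox6b2, Ndufa12, Ndufb11 and Atp5g3). A general shift of the chain in either direction therefore depended on the scaling, and the single genes below are given with their own values. Besides those 8, the lower members with median centring were Atp5c1, Atp5l, Ndufa5, Ndufa7, Ndufs6, Sdhd, Cox4i1, Cox5a and Ndufa4.

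**Figure D1:**
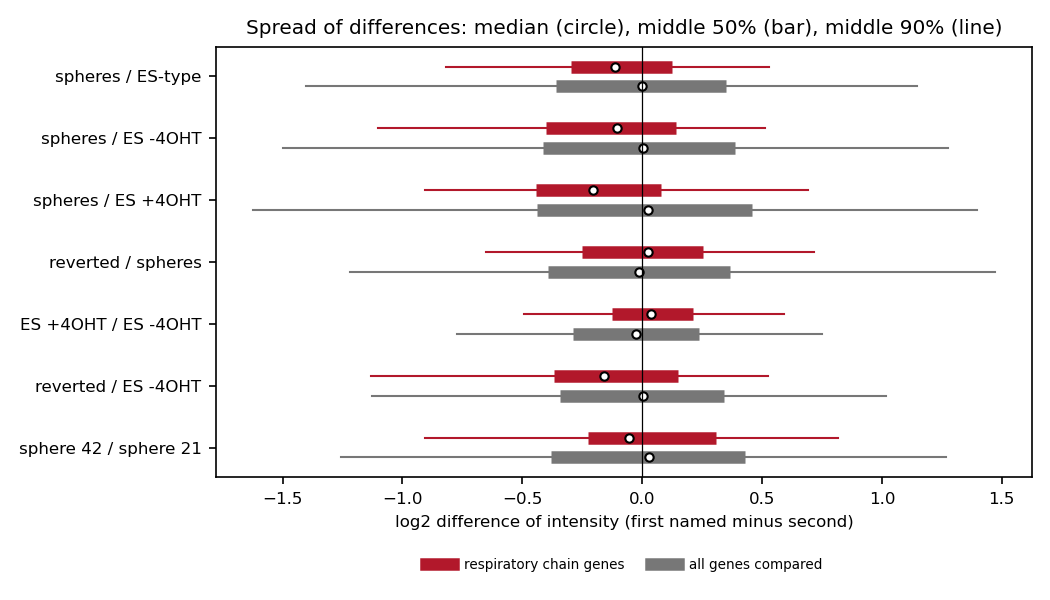
Distribution of log2 intensity differences (x axis) in each comparison (y axis, first named minus second) for the respiratory chain genes (red) and all genes compared (grey); circles are medians, bars the middle 50% and lines the middle 90%. The red bar for spheres against ES-type arrays spans 0.42 log2 units and the grey one 0.71.

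**Figure D2:**
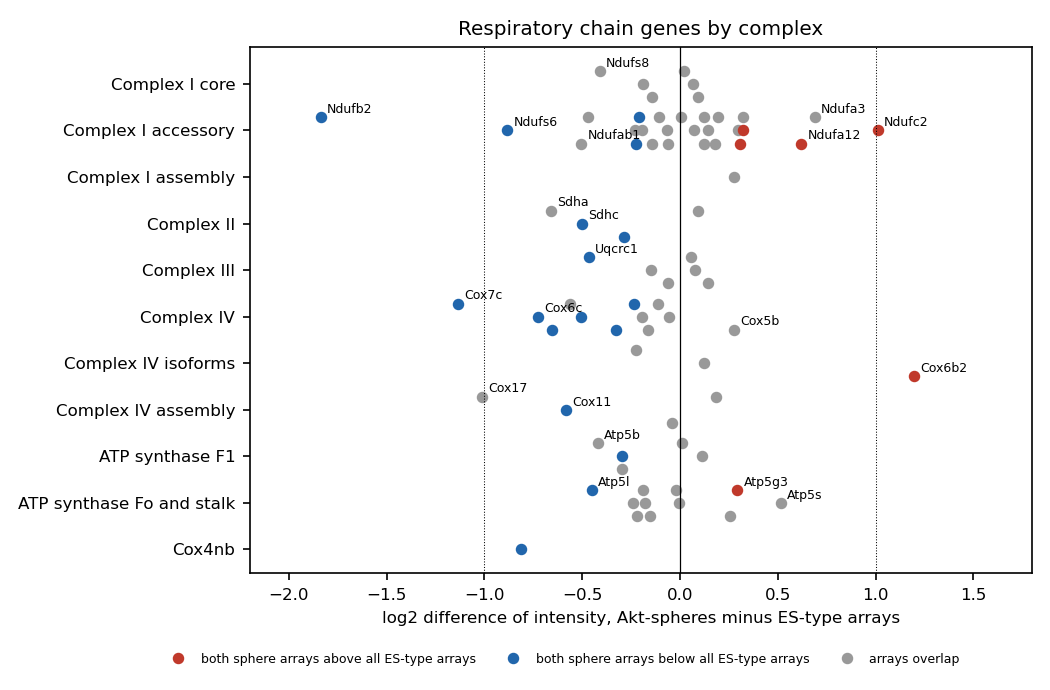
Log2 intensity difference, Akt-spheres minus the 3 ES-type arrays (x axis), for each tested member grouped by complex (y axis); colours show whether both sphere arrays lay above or below all ES-type arrays, and dotted lines mark 2-fold. Ndufb2 at -1.84 lies farthest to the left and Cox6b2 at 1.20 farthest to the right.

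In complex I, Ndufb2, an accessory subunit of the membrane arm, had intensities of 64.0 and 63.8 in the spheres of lines 21 and 42, against 178, 282 and 246 in reverted cells, ES cells with 4OHT and ES cells without it. Both sphere arrays were below every ES-type array and nearly equal to each other, a 3.57-fold fall (log2 -1.84, SE 0.28, limma adjusted p = 0.0383). The call held under every scaling, filter and pseudocount tried (adjusted p = 0.0340 to 0.0406), and also without the reverted array (0.0309). It was lost without the line 21 spheres (adjusted p = 0.102), the line 42 spheres (0.104), ES cells with 4OHT (0.127) or ES cells without it (0.175), with differences of -1.86, -1.81, -1.72 and -1.75.

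Ndufc2, another accessory subunit of the membrane arm, read 7249 and 11095 in spheres against 3612, 5413 and 4539.8 on the ES-type arrays (log2 1.01, SE 0.30, limma adjusted p = 0.151). Ndufa12, an accessory subunit of the arm that holds the electron path, read 12006 and 17270.1 in spheres against 9031, 10567 and 8662 (log2 0.62, SE 0.25, limma adjusted p = 0.257). The sphere arrays stood above all ES-type arrays for both genes, and neither passed limma. The same order was seen for Ndufa13, also known as a cell death regulator, at 0.31 (lost under quantile normalization), and for the X-linked Ndufb11 at 0.32. Ndufa3, Ndufa11 and Ndufa2 had differences of 0.69, 0.32 and 0.29, and with median centring their arrays overlapped. The sphere arrays were above all ES-type arrays for Ndufa3 with no centring and for Ndufa11 under quantile normalization. Ndufa3 read 88.7 and 46.3 in spheres against 41.5, 32.9 and 45.1, with line 21 spheres highest and line 42 spheres next to ES cells without 4OHT.

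Lower on both sphere arrays was Ndufs6, a zinc-binding accessory subunit needed late in complex I assembly, with 12331 and 5298 in spheres against 14589, 14354 and 15942 (log2 -0.88, SE 0.40, limma adjusted p = 0.307). Its line 21 value lay close to the ES-type arrays and its line 42 value far below them, and the order of the arrays was lost under quantile normalization. Ndufab1, the mitochondrial acyl carrier protein, read 83.9 and 87.5 in spheres against 67.6, 146 and 186, so spheres and reverted cells were both below the ES cultures (log2 -0.51, limma adjusted p = 0.623). Over the 26 accessory subunits tested, 14 differences were above 0 and 12 below, with a median of 0.04 (0.12 under quantile normalization).

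The core subunits of complex I, which carry the flavin and the iron-sulfur centres, lay near their ES-type level. Ndufs1, Ndufs3, Ndufs7 and Ndufs8 had log2 differences of 0.02, 0.06, 0.09 and -0.41, and the flavoprotein genes Ndufv1 and Ndufv2 of -0.19 and -0.14, with SEs of 0.23 to 0.30. The arrays of both sides overlapped for all 6 with median centring, and the median of -0.06 turned to 0.02 under quantile normalization. Ndufs8 read 906 and 697 in spheres and 921, 1473 and 873 on the ES-type arrays, where ES cells with 4OHT stood alone at the top. None of the 6 passed limma (0 also at an unadjusted p under 0.05). The assembly factor Ndufaf1 was at 0.28.

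Complex II links the chain to the citric acid cycle. Sdha, its flavoprotein, read 3039.6 and 959 in spheres against 4019, 2283 and 2165 on the ES-type arrays (log2 -0.66, SE 0.56, limma adjusted p = 0.587). The line 42 array held the lowest value of the 5 and line 21 spheres the second highest, so the difference rested on line 42: without it the value was 0.20. Sdhb, the iron-sulfur subunit, was at 0.09. The membrane anchors Sdhc (1084 and 895 in spheres against 1561, 1530.2 and 1147) and Sdhd (2095 and 2227 against 2732, 2899 and 2322) were below all ES-type arrays in both lines, with differences of -0.50 and -0.29 and limma adjusted p of 0.338 and 0.538. For Sdhd that order was lost under quantile normalization.

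Of the 6 complex III subunits tested, Uqcrc1, a core structural protein, was below all ES-type arrays in both sphere lines, with 4900.5 and 4891 against 5909, 7627 and 6910.1 (log2 -0.47, limma adjusted p = 0.345). Uqcrfs1, the Rieske iron-sulfur protein, was at 0.08 and Uqcrc2 at 0.14. Uqcrh, the hinge protein that helps cytochrome c to dock, read 2192 and 4888 in spheres of lines 21 and 42 against 2125, 4767 and 4760.1. Line 42 spheres and both ES cultures were alike near the upper value, while line 21 spheres and the cells reverted from them were less than 50% of it. The median over the complex was 0.00, and 0.13 under quantile normalization.

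In complex IV, 12 genes were grouped as general subunits, among them Cox7a2l, which joins complexes III and IV. Of these, 11 were below 0 (against 49.9% of all genes), and 6 were below all ES-type arrays in both sphere lines (against 18.5% of all genes). Under quantile normalization 7 were below 0 and 3 were below all ES-type arrays (against 17.2%). The median of -0.28 became -0.07, where all genes had 0.00 and 0.03. Cox7c, a small structural subunit, read 17295 and 9594 in spheres against 21998, 34391 and 30036 on the ES-type arrays (log2 -1.13, SE 0.36, limma adjusted p = 0.174). Cox6c, also small and structural, read 12282 and 11045 in spheres against 19418, 18582 and 19913 (log2 -0.72, SE 0.22, limma adjusted p = 0.164). Cox7b, encoded on the X chromosome, read 14334 and 11587 against 20192, 20731 and 20171 (log2 -0.66, SE 0.23, limma adjusted p = 0.207). For these 3 the order held under all 3 scalings, and none passed limma.

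Cox5a, Cox4i1 and Ndufa4, a subunit once assigned to complex I, were lower in both lines by smaller amounts, at -0.50, -0.33 and -0.24, and their arrays overlapped under quantile normalization. Cox7a2l, a factor that joins complexes III and IV, read 1520.1 and 1576 in spheres against 1565, 3109.6 and 2483, so the reverted cells were with the spheres (-0.56). Cox5b was the exception above 0, at 0.27. It read 15225 and 14203 in spheres against 15838, 15702 and 7291, where ES cells without 4OHT stood alone at the bottom, and without that array the difference was -0.06.

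The assembly factors of complex IV include the copper chaperones Cox17 and Cox11. Cox17, which hands copper to the complex from the intermembrane space, read 1478 and 2277 in spheres against 1321, 7769 and 4955 in reverted cells and ES cells with and without 4OHT (log2 -1.01, SE 0.75, limma adjusted p = 0.533). Spheres and reverted cells were thus all below both ES cultures. Cox11 read 181 and 336 in spheres against 358, 388 and 366 (-0.58, limma adjusted p = 0.370), with line 21 spheres lowest. Cox10 and Cox15, which make haem a, were at 0.18 and -0.04.

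Of the isoforms known from particular tissues, Cox6b2, the testis form of subunit 6b, read 1324 and 2553 in spheres against 605, 1041 and 819.7 on the ES-type arrays (log2 1.20, SE 0.37, limma adjusted p = 0.166), a 2.30-fold difference with both sphere arrays above all others. Its ubiquitous counterpart Cox6b1 was at -0.11. Cox4i2, an isoform of subunit 4 known from lung and low oxygen, read 199 and 289.5 in spheres against 250.4, 299 and 298 (-0.23). The heart and muscle form Cox8b had intensities of 22.7 and 36.9 in spheres and 21.5, 35.1 and 24.9 elsewhere. Cox6a2, also a muscle form, read 5.36 and 9.77 in spheres and 3.32 and 13.5 in reverted cells and ES cells with 4OHT, with no value without 4OHT. Cox8c, another testis form, read 5.36 in line 42 spheres and 16.8 and 11.4 in ES cells with and without 4OHT, and had no value in line 21 spheres and reverted cells. Cox6a2 and Cox8c lay under the filter, as did Uqcrq (4.05 and 5.96 in spheres and 5.92 and 4.92 in reverted cells and ES cells with 4OHT, no value without 4OHT) and Ndufc1 (18.6 and 17.8 in spheres against 18.1, 21.4 and 25.7). These 4 are the members not tested.

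The array annotation is old, and 12 further genes carry a name of this family today but other names on the array. Cox7b2, the testis form of subunit 7b, read 12.0 and 16.9 in spheres against 192, 626 and 200.5 in reverted cells and ES cells with and without 4OHT. Both sphere values were under the filter's intensity of 28.6 to 29.3, so Cox7b2 passed the filter only through the ES-type arrays, and its values are given as a description with no test. Among the remaining 11, Ndufaf4, a complex I assembly factor, read 2773 and 4234 in spheres against 1710.1, 1796 and 2063 (0.89, limma adjusted p = 0.164). Ndufa4l2, a paralogue of Ndufa4 known as a hypoxia target, read 238 and 269 against 201, 169 and 166 (0.51, limma adjusted p = 0.296). Ndufaf4 and Ndufa4l2 were picked with their values in view, as was Cox7b2. Among the testis isoforms of complex IV, Cox6b2 was above all ES-type arrays in both sphere lines and did not pass limma. Cox7b2 read below them in spheres, under the filter's intensity and without a test, and Cox8c was not tested.

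**Figure D3:**
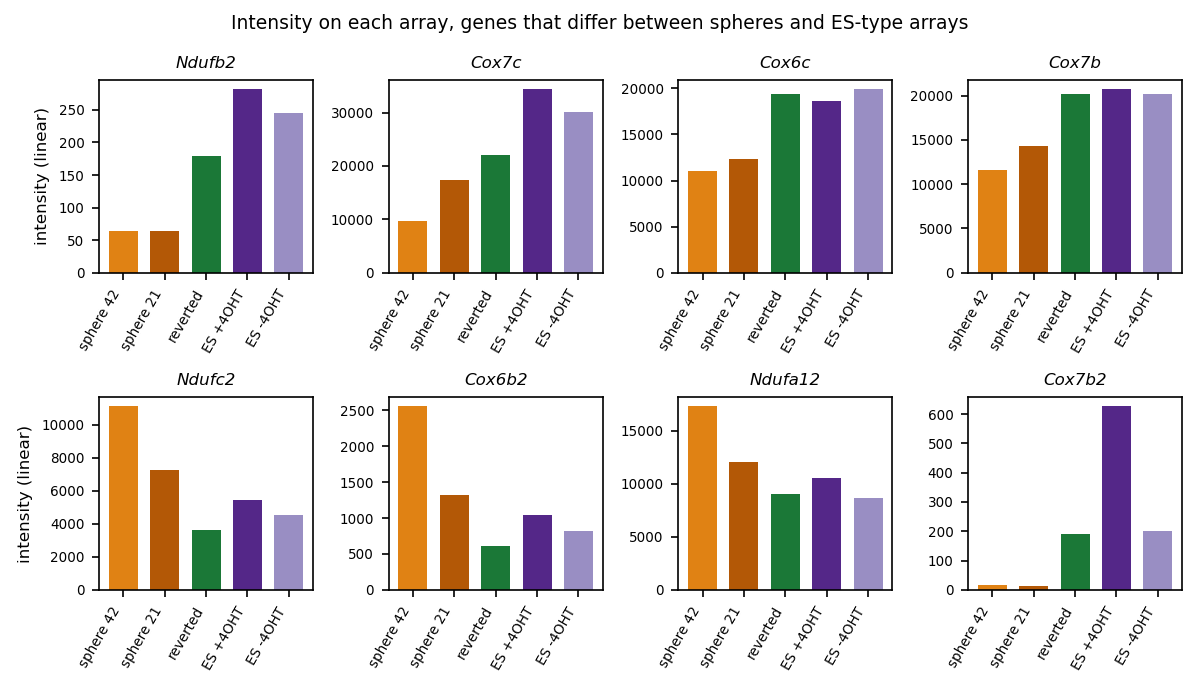
Intensity on a linear scale (y axis) on each of the 5 arrays (x axis) for 8 genes, 1 bar per array and no error bars. Ndufb2, Cox7c, Cox6c, Cox7b and Cox7b2 are lower on both sphere arrays than on all ES-type arrays, and Ndufc2, Cox6b2 and Ndufa12 higher.

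The promoters of Ndufb2 and Ndufc2 (complex I) and of Cox7b2 and Cox6b2 (complex IV) are shown because the differences of these genes were large and of opposite sign within each complex, and Ndufb4 is shown for its matches to NRF1, a transcription factor known for driving many nuclear respiratory genes. Each line gives the 250 bases before the annotated start from RefSeq (GRCm38.p6), 5′ to 3′ on the strand of the gene, and capitals mark letters that match a searched motif:
Ndufb2: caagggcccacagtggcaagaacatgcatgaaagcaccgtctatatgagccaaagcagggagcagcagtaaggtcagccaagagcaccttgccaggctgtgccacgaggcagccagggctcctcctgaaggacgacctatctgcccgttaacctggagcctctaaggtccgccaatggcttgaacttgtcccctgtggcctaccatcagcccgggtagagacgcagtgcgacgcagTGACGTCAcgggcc
Ndufc2: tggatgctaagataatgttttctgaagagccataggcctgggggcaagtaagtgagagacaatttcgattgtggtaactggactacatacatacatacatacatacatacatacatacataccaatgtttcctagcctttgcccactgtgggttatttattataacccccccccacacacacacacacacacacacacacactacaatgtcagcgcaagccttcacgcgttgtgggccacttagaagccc
Cox6b2: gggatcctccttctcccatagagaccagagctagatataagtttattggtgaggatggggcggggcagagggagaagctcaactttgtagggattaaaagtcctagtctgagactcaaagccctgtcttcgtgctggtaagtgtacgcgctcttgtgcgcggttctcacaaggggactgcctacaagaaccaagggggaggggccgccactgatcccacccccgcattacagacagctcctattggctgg
Cox7b2: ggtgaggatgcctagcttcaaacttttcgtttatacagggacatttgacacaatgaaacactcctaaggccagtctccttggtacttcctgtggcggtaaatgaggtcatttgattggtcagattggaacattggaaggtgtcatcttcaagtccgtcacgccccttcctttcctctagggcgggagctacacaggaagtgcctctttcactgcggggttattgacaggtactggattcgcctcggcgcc
Ndufb4: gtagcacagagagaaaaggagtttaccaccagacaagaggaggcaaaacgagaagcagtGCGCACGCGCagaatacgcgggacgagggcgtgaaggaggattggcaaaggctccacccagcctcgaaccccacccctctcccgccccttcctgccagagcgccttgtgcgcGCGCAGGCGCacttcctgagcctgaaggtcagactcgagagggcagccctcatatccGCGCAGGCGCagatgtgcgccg
They lie at chr6:39592315-39592564 (Ndufb2, + strand), chr7:97399753-97400002 (Ndufc2, + strand), chr7:4753095-4753344 (Cox6b2, - strand), chr5:71548206-71548455 (Cox7b2, - strand) and chr16:37654369-37654618 (Ndufb4, - strand). The motifs were searched on both strands as exact letters: GCGCA, any base and GCGC for NRF1, TGACGTCA for the cAMP response element, ACGTG for the core of the hypoxia response element, CCGGAAG for ETS factors and AAGATGGC for YY1.

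Ndufb2 held TGACGTCA at position -14 from the start and Ndufb4 held the NRF1 letters at -191, -79 and -22, while the windows of Ndufc2, Cox6b2 and Cox7b2 held none of the 5 letter strings in these 250 bases. A window was found for 68 members other than Cox4nb. The NRF1 letters were present in 12 of them (17.6%), against 3.86% of the same 250 bases in the 27025 genes with a window, and CCGGAAG in 12 (17.6% against 7.05%). ACGTG was present in 15 (22.1% against 16.6%), TGACGTCA in 4 (5.88% against 1.62%) and AAGATGGC in 0 (against 1.59%). A match describes letters and is not a shown binding site.

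Among the ATP synthase genes, Atp5b, the catalytic beta subunit, read 14296 and 16557 in spheres against 15851, 24963 and 22149.8 on the ES-type arrays (log2 -0.42, SE 0.28, limma adjusted p = 0.486), with reverted cells between the sphere lines. Atp5a1, the alpha subunit, was at 0.01, with its highest value of 6416 in reverted cells. The other F1 genes Atp5c1, Atp5d and Atp5e were at -0.30, -0.30 and 0.11, and the F1 median of -0.30 became -0.04 under quantile normalization. The ring of c subunits is encoded by 3 genes. Of these, Atp5g3 read 38748 and 46628 in spheres against 31586, 35694 and 37331 and stood above all ES-type arrays (0.29, limma adjusted p = 0.565), while Atp5g1 and Atp5g2 were at -0.15 and -0.02. Atp5g2 turned to 0.18 under quantile normalization. Atp5l, subunit g of the membrane part, was lower in both lines at -0.45, an order lost under quantile normalization. Atp5s, now called Dmac2l, was at 0.52 and read 48.1 and 129 in spheres against 30.2, 104 and 52.7, with line 42 spheres highest and line 21 spheres within the ES-type range. Cox4nb, outside the chain, was at -0.81 (limma adjusted p = 0.174). The tested members whose difference between spheres and ES-type arrays is not given above (Atp5f1, Atp5h, Atp5j, Atp5j2, Atp5k, Atp5o, Cox6a1, Cox7a2, Cox8a, Ndufa1, Ndufa10, Ndufa5, Ndufa6, Ndufa7, Ndufa8, Ndufa9, Ndufb10, Ndufb3, Ndufb4, Ndufb5, Ndufb7, Ndufb8, Ndufb9, Ndufs4, Ndufs5, Uqcr, Uqcrb and Uqcrh) lay between -0.47 (Ndufb4) and 0.26 (Atp5f1), and none passed limma.

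Against line 21 ES cells without 4OHT alone, 3 members were lower by 2-fold or more in each sphere line (3.8%, against 6.01% of all genes) and 0 higher (against 4.51%). They were Ndufb2 (log2 -2.002, SE 0.40), Cox17 (log2 -1.51, SE 0.47) and Ndufab1 (log2 -1.18, SE 0.40). Against ES cells with 4OHT, where the kinase is active on both sides, 2 members were lower (2.53%, against 6.86%) and 0 higher (against 5.98%), namely Ndufb2 (log2 -2.06, SE 0.40) and Cox17 (log2 -2.02, SE 0.47). limma with 1 residual degree of freedom called 0 members and 0 genes in either comparison, with 3 members (3.8%, against 9.37% of all genes) and 2 members (2.53%, against 11.6%) at an unadjusted p under 0.05. These comparisons share the sphere arrays, and the median of the members was -0.11 against ES cells without 4OHT and -0.20 against those with it. Over all genes the 2 medians were 0.00 and 0.02, and over genes with a mean intensity of at least 1000 they were -0.11 and -0.06. Under quantile normalization the members' medians turned to 0.11 and 0.03, with 0.05 and 0.06 for all genes.

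In ES cells with 4OHT against ES cells without it, 1 array each, 0 members were 2-fold apart (2.56% of all genes were higher and 2.4% lower), and 89.9% of members were within 1.5-fold, against 82.8% of all genes. The median was 0.04 over the members and -0.03 over all genes. There were 8 members past 1.5-fold, 5 higher and 3 lower. Cox5b was farthest, with 15702 with 4OHT and 7291 without (log2 0.97), and without centring it passed 2-fold. The others above 0 were Atp5s (0.83), the stalk gene Atp5o (0.75), Ndufs8 (0.62) and Ndufa10 (0.59), and those below were Cox10 (-0.88), Cox6b1 (-0.78) and Atp5j (-0.59). Cox7b2, outside the name rule, read 626 with 4OHT and 200.5 without. With single arrays there is no replicate check.

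Reverted cells were compared with the spheres and with the starting ES cells. Against both sphere arrays, Ndufb2 was at least 2-fold higher in reverted cells (log2 1.44, SE 0.40), and Cox6b2 (log2 -1.63, SE 0.55) and Ndufc2 (log2 -1.34, SE 0.47) at least 2-fold lower. That is 1.27% of members higher against 5.81% of all genes, and 2.53% lower against 4.21%. limma called 0 members and 0 genes here, with 3 members (3.8%, against 8.91% of genes) at an unadjusted p under 0.05. For these 3 genes the reverted array lay on the ES side of both spheres, which is a description. They were picked for the distance between reverted cells and spheres. They were also among the members farthest apart between spheres and ES-type arrays, which include the reverted array. Reverted Ndufb2 lay between the spheres and both ES cultures, while reverted Ndufc2 and Cox6b2 lay below both ES cultures.

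Against ES cells without 4OHT, 5 of 78 members were at least 2-fold lower (6.41%, against 6.34% of all genes) and 1 higher (1.28%, against 5.18%), with 1 array a side and no replicate check. These shares are close to or below those of all genes. Cox17 read 1321 in reverted cells and 4955 in ES cells (log2 -2.01). Ndufab1 read 67.6 and 186 (log2 -1.54), Atp5j, coupling factor 6 of the stalk, 1952 and 4625 (log2 -1.34). Uqcrh read 2125 in reverted cells and 4760.1 in ES cells (log2 -1.26), and the complex I accessory gene Ndufb4 1466 and 2949 (log2 -1.11). Cox5b read 15838 in reverted cells and 7291 in ES cells (log2 1.02).

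These 6 genes were picked for their distance from ES cells, so their values beside the parent line 21 spheres are a description. Uqcrh read 2125 in reverted cells and 2192 in line 21 spheres, Ndufb4 1466 and 1548, and Cox17 1321 and 1478. Atp5j read 1952 and 2317 and Ndufab1 67.6 and 83.9, in the same order of cultures. For Cox5b the centred log2 intensities were 13.93 and 13.92. Ndufs5, an accessory subunit of complex I, is not one of the 6 and was named after its values were seen. Its 2 probes read 2553 and 1404 in reverted cells, 2584 and 1497 in line 21 spheres, and 4605 and 2452 in ES cells without 4OHT. Line 42 spheres read 4719 and 2615, above those ES cells. Line 21 spheres and ES cells without 4OHT differed by 1.5-fold or more in 22 members, and reverted cells were nearer to the spheres for 12 (54.5%) and nearer to the ES cells for 10. Over all 4399 genes so far apart the share nearer to the spheres was 41.1%. The median of all members in reverted against ES cells was -0.16, and 0.08 under quantile normalization. For all genes it was 0.00 and 0.05.

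Between the sphere lines, line 42 against line 21 with 1 array each, 2 members were at least 2-fold higher (2.53%, against 7.87% of all genes) and 2 lower (2.53%, against 7.81%). Sdha read 959 in line 42 and 3039.6 in line 21 (log2 -1.72), and Ndufs6 5298 and 12331 (log2 -1.27). Atp5s read 129 in line 42 and 48.1 in line 21 (log2 1.35), and Uqcrh 4888 and 2192 (log2 1.10). Within 1.5-fold of each other were 82.3% of members, against 64.4% of all genes. The members' median was -0.06, and -0.24 under quantile normalization, with 0.03 and -0.01 for all genes.

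**Figure D4:**
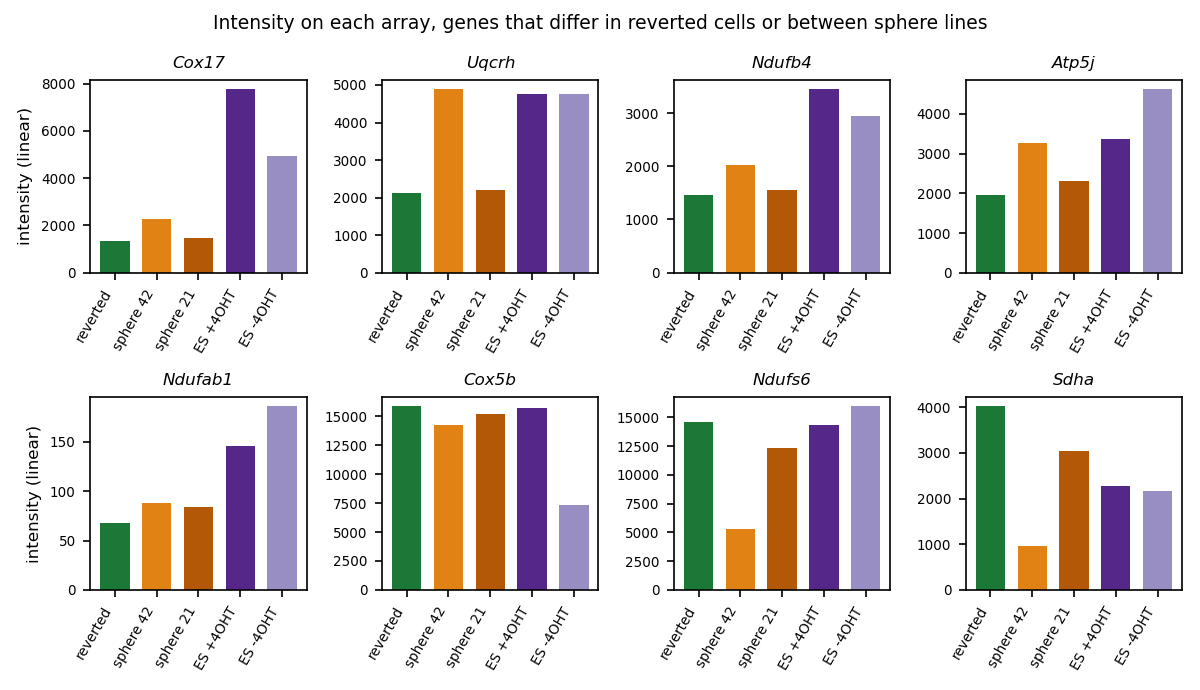
Intensity on a linear scale (y axis) on each array (x axis) for 8 members, 1 bar per array and no error bars. Cox17, Uqcrh, Ndufb4, Atp5j and Ndufab1 are lower and Cox5b higher in reverted cells than in ES cells without 4OHT, and Ndufs6 and Sdha are lowest in line 42 spheres.

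Genes next to the chain were compared in the same way, spheres against the 3 ES-type arrays. Of 18 tested carriers, cytochromes and electron-feeding enzymes outside the name rule, limma called 0, and their median was -0.07. Gpd2, the glycerol phosphate dehydrogenase that feeds ubiquinone, read 273 and 67.4 in spheres against 788, 1313 and 828 (log2 -2.79, limma adjusted p = 0.0802), and the testis cytochrome c gene Cyct 12.2 and 36.9 in spheres against 56.5, 195 and 136 (-2.37, 0.134). The ADP/ATP carrier gene Slc25a5 read 8558 and 12012 in spheres against 17827, 22241 and 18632 (log2 -0.94, limma adjusted p = 0.125). The mitochondrial creatine kinase gene Ckmt1 was at -1.37.

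In the citric acid cycle and pyruvate dehydrogenase, 0 of 17 genes passed, with a median of -0.12. Idh3b, of the NAD-dependent isocitrate dehydrogenase, read 459.8 and 252 in spheres against 1075, 1239.8 and 990.2 (log2 -1.68, limma adjusted p = 0.0606), and Idh2, its NADP-dependent relative, 324 and 401 in spheres against 568, 1843 and 1266 (log2 -1.60, limma adjusted p = 0.171). Pdha1 and Sucla2 were at -0.75 and -0.75. For coenzyme Q synthesis 0 of 10 passed. Coq2, which joins the ring of coenzyme Q to its tail, read 1289 and 2148 in spheres against 784, 545 and 649.9 (log2 1.35, limma adjusted p = 0.0934), and Coq6, Coq8b and Coq7 were at -0.75, 0.60 and 0.54. Of 20 assembly factors, 0 passed. Tmem70, of the ATP synthase, read 626 and 1252 in spheres against 378, 504 and 363 (1.11), and Tmem126b, Coa5 and Acad9 were at -0.63, -0.62 and -0.56.

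Of 18 regulators of mitochondrial biogenesis and mitochondrial DNA expression, 0 passed, with a median of 0.14 and the largest differences in Tfb2m (0.54), Polrmt (-0.51), Mterf3 (0.51) and Polg2 (0.50). In the list of genes that tune mitochondria to oxygen, 2 of 11 were called higher (0.963% of all genes were). They were the oxygen-sensing prolyl hydroxylase genes Egln3 (log2 3.60, limma adjusted p = 0.0399) and Egln1 (log2 2.20, limma adjusted p = 0.0365). The list's median was 0.20, with -0.04 against ES cells without 4OHT and 0.30 against ES cells with it. Bnip3l, Higd1a and Ldha were at 0.95, 0.31 and 0.20. Mxi1, Pdk1, Lonp1 and Hif1a were at -0.74, -0.16, -0.13 and -0.10. Pdk3, a kinase that shuts off pyruvate dehydrogenase, read 529 and 521 in spheres against 252, 263 and 289 (log2 0.98, limma adjusted p = 0.0928). Epas1 read 6.36 and 13.54 in spheres against 18.3, 30.11 and 59.25. It passed the filter on dim probes only through the 2 ES cultures, so its values are a description with no test.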

How the data were processed

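Probe intensity values on a linear scale were deposited by the authors for 22871 probes on 5 arrays. How background and normalization were handled is not given in the sources used here. Per the labels' protocols, total RNA was amplified to amino allyl antisense RNA for arrays made by Toray. Empty cells were not filled in.

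Symbols came from the platform annotation (16264 probes with 1 symbol, 6607 with none) and were updated through RefSeq synonyms. After log2(intensity + 1), the median of every array was set to a common value, so folds are on that scale and understate changes of dim probes. Genes entered a comparison with values on all of its arrays and, on 1 or more, an intensity at or above the 40th percentile (28.6 to 29.3). limma 3.58.1 in R 4.3.3 (lmFit, eBayes, Benjamini-Hochberg over all genes, threshold 0.05) tested spheres against the ES-type arrays with 3 residual degrees of freedom. Comparisons of spheres with 1 culture used 4 group means with 1 residual degree of freedom, where the lone array takes its spread from the spheres, and a 2-fold call needed both sphere arrays. Single arrays were compared without a test. P-values rest on the spread among these 5 arrays, and the number of arrays limits precision. In the test against the ES-type arrays, that spread holds differences between the sphere lines and among the 3 ES-type conditions. How much of it is technical cannot be told.

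Named genes were all members called in any comparison, the 10 highest and 10 lowest differences, the complex I core, complex II, F1, c-ring and isoform genes, members with an empty cell, and up to 4 genes per companion list. Others were named after their values were seen. Members and lists were chosen with earlier results of these data known. The fit was tested on simulated data. Alternatives were the pseudocount, filter, scaling, probe summary, current symbols, a 1.5-fold threshold, leaving out each array and, added after seeing the data, leaving out Cox4nb. RefSeq holds 20 pseudogenes under these names, and their part in a probe's signal was not tested.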

Additional observations from a re-analysis of the deposited data

How the results depend on the processing

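No paired analysis was possible because only line 21 has both sphere and ES-type arrays here. With no centring, the members' median log2 difference was -0.0312 for spheres against ES cells without 4OHT, -0.27 for spheres against ES cells with 4OHT, 0.0472 for reverted cells against spheres, 0.17 for ES cells with against without 4OHT, -0.0601 for reverted against ES cells without 4OHT and -0.00288 for line 42 against line 21 spheres. With quantile normalization it was 0.0428 for spheres against ES-type arrays, 0.11 for spheres against ES cells without 4OHT, 0.0335 for spheres against ES cells with 4OHT, 0.0902 for ES cells with against without 4OHT, 0.0785 for reverted against ES cells without 4OHT and -0.24 for line 42 against line 21 spheres, and Atp5g2 in spheres against ES-type arrays was at 0.18. No centring put the median of all genes at 0.111 in ES cells with against without 4OHT and at 0.102 in reverted against ES cells without 4OHT (-0.03 and 0.00 with centring), and 1 member then passed 2-fold in the first. The filter at the 60th percentile gave -0.14 for spheres against ES-type arrays and left 313 genes past 2-fold between ES cells with and without 4OHT, where 488 were counted with the 40th percentile and 752 without a filter. By current symbols the median was -0.0785 for spheres against ES-type arrays, -0.18 for spheres against ES cells with 4OHT, -0.0177 for reverted cells against spheres and 0.0661 for ES cells with against without 4OHT. Members called were then 2 for spheres against ES-type arrays, Ndufb2 and Cox7b2. Cox7b2 passed the filter only through the ES-type arrays, so its call is no test and Ndufb2 alone remains. At least 2-fold apart were 5 members for reverted cells against spheres (with 10% of all genes). For ES cells with against without 4OHT it was 1 member (with 4.95% of all genes). Cox7b2 is in both counts. Of the 93 members by current symbols, the number that passed the filter is not given here. With the threshold set to 1.5-fold, a call still needed both sphere arrays to pass it the same way. These counts are therefore not those of the mean difference used for the shares within 1.5-fold. For spheres against ES cells without 4OHT, 12 of 79 members and 2244 of 10283 genes were past 1.5-fold by this rule. Against ES cells with 4OHT it was 11 of 79 members and 2624 of 10407 genes. Reverted cells against spheres gave 5 of 79 members and 2078 of 10328 genes. ES cells with against without 4OHT gave 8 of 79 members and 1690 of 9852 genes. Reverted against ES cells without 4OHT gave 13 of 78 members and 2866 of 9939 genes. Line 42 against line 21 spheres gave 14 of 79 members and 3544 of 9954 genes. limma with the spread of the sphere arrays called 0 genes between ES cells with and without 4OHT, and 0 genes and 0 members between reverted and ES cells.

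Leaving out 1 array at a time, limma called 0 to 284 genes and 0 to 1 members in spheres against ES-type arrays (0 genes without ES cells lacking 4OHT, 32 without ES cells with 4OHT, 98 without line 42 spheres, 148 without line 21 spheres), with a median of -0.128 to -0.0478. With 1 sphere array left, the genes past 2-fold were 1890 to 2266 for spheres against ES cells without 4OHT, 2132 to 2702 for spheres against ES cells with 4OHT and 1705 to 2284 for reverted cells against spheres, the members 8 to 9 for spheres against ES cells without 4OHT, 8 to 9 for spheres against ES cells with 4OHT and 4 to 8 for reverted cells against spheres, and the medians -0.146 to -0.0923 for spheres against ES cells without 4OHT, -0.165 to -0.156 for spheres against ES cells with 4OHT and -0.00669 to 0.0504 for reverted cells against spheres. Single genes in spheres against ES-type arrays changed sign when 1 array was left out, with ranges of -0.12 to 0.26 for Atp5a1, -0.29 to 0.25 for Atp5g2, -0.53 to 0.14 for Atp5j, -0.16 to 1.19 for Atp5s, -0.47 to 0.0179 for Cox4i2, -0.0578 to 0.45 for Cox5b, -0.19 to 0.44 for Cox8b, -0.21 to 0.26 for Ndufs1, -0.014 to 0.14 for Ndufs3, -0.0647 to 0.25 for Ndufs7, -0.45 to 0.16 for Ndufv2, -1.52 to 0.20 for Sdha, -0.17 to 0.32 for Sdhb and -0.70 to 0.40 for Uqcrh. None of these genes passed limma.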
